A study of Mus musculus with 13 samples.

Results

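The genes described here are 8 genes of liver metabolism that were higher in wild-type (WT) mouse livers at 3 weeks of age than at 9 weeks. They are Cyp2b9, Cyp2b13, Cyp2a22, Cyp3a16 and Cyp3a44, which encode cytochrome P450 enzymes, Hao2 and Akr1c18, which encode an oxidase and a reductase, and Slc22a27, which encodes a membrane transporter. They are 8 of the 18820 genes that the array measured with a feature annotated to a single gene, and each of the 8 had 1 such feature. They were chosen for their fall with age in WT livers, which is therefore given as a description with no test. By that measured difference they held ranks 1, 2, 3, 4, 5, 7, 8 and 79 among the 18820 genes, Cyp3a44 being the one at rank 79.

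Liver RNA of 13 mice on the C57BL/6J background was hybridised to Affymetrix whole-transcript arrays, with 1 array for each animal. The groups were LiSel1lKO at 9 weeks (3 livers), WT at 9 weeks (3 livers), LiSel1lKO at 3 weeks (4 livers) and WT at 3 weeks (3 livers). LiSel1lKO mice carried loxP sites around exon 6 of Sel1l and a Cre recombinase under the albumin promoter, which acts in hepatocytes. Liver cells in which the Cre does not act keep the gene. The labels call the control animals wild type and do not say whether they carried the floxed allele or Cre, and mice of all groups were fasted for 5 to 6 hours in the morning. Sel1L works with the ubiquitin ligase Hrd1 in taking misfolded proteins out of the endoplasmic reticulum for degradation.

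Cytochrome P450 enzymes of families 2 and 3 sit in the endoplasmic reticulum membrane of hepatocytes and oxidise steroids, drugs and other foreign compounds. In mice, many such genes are expressed alike in young animals of both sexes and part ways at puberty. In males the pulses of growth hormone that begin at puberty act through the transcription factor STAT5b to lower one set of genes, which stays on in females, and to raise another. Several of the 8 genes, among them Cyp2b9, Cyp2b13 and Cyp3a44, are known as female-predominant genes of this kind in adult mouse liver.

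Values are log2 expression as deposited, so a difference of 1 is a doubling of signal, and levels of different genes are not compared. The median of an array lay between 3.72 and 3.81, and no detection calls were used, so values below about that level have no assured distance from background. The sex of the animals is not in the labels. The Y-linked genes Kdm5d, Uty and Eif2s3y lay between 5.04 and 6.95 in the 13 livers, and Xist, the transcript of the inactive X chromosome, lay between 1.71 and 2.64. The 9 measured hepatocyte markers (of 11 listed) averaged between 12.4 and 12.6 in every liver. By limma 0 of them passed the test between LiSel1lKO and WT livers at either age. At an unadjusted p under 0.05 there was 1 at 9 weeks and 0 at 3 weeks, against 13.9% and 7.41% of all features. The 4 listed markers of the adrenal cortex, a tissue that also expresses Akr1c18, averaged between 3.07 and 3.51. In whole liver, fewer cells of a type and less RNA per cell cannot be told apart.

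Sel1l itself was at 7.90, 7.54 and 7.72 in the LiSel1lKO livers at 9 weeks, against 8.78, 8.70 and 8.72 in the WT livers. At 3 weeks the level was 8.42, 7.90, 7.20 and 7.10 in LiSel1lKO livers, against 8.94, 8.77 and 8.85 in WT livers. Every LiSel1lKO liver lay below every WT liver of its age, but neither difference passed the test over all features (log2 difference -1.02 ± 0.28, adjusted p = 0.109, and -1.21 ± 0.26, adjusted p = 0.391; SE from the fit). The labels do not say which exons this feature reads.

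The genes lie on 5 chromosomes. Cyp2b13 and Cyp2b9 are neighbours on chromosome 7, where Cyp2a22 also lies, Cyp3a16 and Cyp3a44 lie on chromosome 5, Hao2 on 3, Akr1c18 on 13 and Slc22a27 on 19. The upstream sequences of the 2 pairs are shown so that the members of each pair, whose genotype differences are given one after the other further on, can be set side by side. The sequences are from RefSeq, build GRCm38.p6, and only bases outside the annotated gene are printed, 5′ to 3′ on the gene's strand. The Cyp2b9 stretch is chr7:26173159-26173349 and the Cyp2b13 stretch chr7:26061245-26061387, both on the plus strand. The Cyp3a16 stretch is chr5:145469741-145469973 and the Cyp3a44 stretch chr5:145805892-145806124, both on the minus strand. Capitals mark matches to 2 of the motifs searched, described after the sequences.
Cyp2b9: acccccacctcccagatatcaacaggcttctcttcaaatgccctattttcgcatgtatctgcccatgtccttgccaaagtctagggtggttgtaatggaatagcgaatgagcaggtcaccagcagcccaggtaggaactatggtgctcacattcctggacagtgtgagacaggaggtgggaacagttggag
Cyp2b13: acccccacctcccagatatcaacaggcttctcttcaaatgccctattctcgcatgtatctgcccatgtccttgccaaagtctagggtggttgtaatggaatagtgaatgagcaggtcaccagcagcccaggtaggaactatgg
Cyp3a16: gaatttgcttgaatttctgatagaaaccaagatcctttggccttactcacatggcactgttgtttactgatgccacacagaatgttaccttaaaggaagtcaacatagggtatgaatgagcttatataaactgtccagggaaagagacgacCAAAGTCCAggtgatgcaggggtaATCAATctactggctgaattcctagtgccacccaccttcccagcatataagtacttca
Cyp3a44: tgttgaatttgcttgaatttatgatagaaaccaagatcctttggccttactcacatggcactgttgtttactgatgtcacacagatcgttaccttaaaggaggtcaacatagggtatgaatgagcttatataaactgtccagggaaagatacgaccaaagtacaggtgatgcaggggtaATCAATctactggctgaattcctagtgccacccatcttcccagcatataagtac

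Over the whole windows of 250 bases before the RefSeq start, Cyp2b9 and Cyp2b13 were identical at 248 of 250 aligned bases and Cyp3a16 and Cyp3a44 at 236 of 246. Of 4 motifs searched on both strands, ATTGAT, a form bound by HNF6, matched Cyp3a16 at bases -75 to -70 and Cyp3a44 at bases -71 to -66, on the minus strand. It is in 6.97% of 27025 RefSeq promoter windows of that length. CAAAGTCCA, an HNF4A-type element, matched Cyp3a16 at bases -99 to -91 and is in 0.381% of windows. The STAT5-type TTCNNNGAA (7.18% of windows) and ATCGAT (0.729%) matched 0 of the 8 genes' windows, and the matches found do not overlap each other. A match is a description of the letters and not of a bound site.

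In WT livers each of the 8 genes was lower at 9 weeks than at 3 weeks, with no overlap between the ages, which held for 9.38% of all features. The median log2 difference of the 8 genes was -4.62, against 0.01 over all 35556 features. Nothing is read from these values, because the same comparison chose the genes. The mean signal at 9 weeks was lower than at 3 weeks by 23.3-fold for Cyp2a22, 19.2-fold for Cyp2b9 and 2.77-fold for Cyp3a44. Their WT means at 9 weeks lay at 5.54, 6.46 and 5.19, still well above the array medians. Without detection calls, and with probes that related genes can share, such a level does not by itself show expression. The WT 9-week mean of Slc22a27, at 3.84, lay just above the array medians, with WT replicate 1 below them at 3.43. Its measured difference was 27.8-fold and may be a lower bound too. The WT 9-week means of Akr1c18, Hao2, Cyp2b13 and Cyp3a16 lay below the array medians, so their falls are lower bounds if that level is background. They were at least 37.6-fold for Akr1c18, 36.9-fold for Hao2, 25.9-fold for Cyp2b13 and 15.8-fold for Cyp3a16, and have no order among themselves.

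LiSel1lKO livers also had less of each gene at 9 weeks than at 3 weeks, but mostly by less. By the size of the fall in LiSel1lKO livers the 8 genes held ranks 1, 3, 4, 7, 13, 14, 23 and 62 among the 18820 genes. Cyp3a16 was at rank 1 and Cyp3a44 at rank 62, so these falls too were among the largest. This comparison uses livers that the WT fall did not use, although the genes were chosen with results of these data known. The WT fall it is set against chose the genes, which favours a smaller fall in LiSel1lKO livers. Hao2, Slc22a27 and Cyp3a44 fell past the threshold, so 3 of the 8 were called lower, against 0.0787% of all features. All 8 had an unadjusted p under 0.05, against 10.1% of all features, and in 6 genes every 9-week liver lay below every 3-week liver, against 4.69%. The median log2 difference of the 8 genes was -1.72, against 0.00 over all features. Under the 21 alternatives to the main fit, described further on, Hao2 passed in 19, and Slc22a27 and Cyp3a44 in 7 each. The count of 3 called genes changed when livers were left out. It was 1 without WT 3-week replicate 1, 2 or 3, LiSel1lKO 3-week replicate 1 or 4, WT 9-week replicate 1 or 2, or LiSel1lKO 9-week replicate 2 or 3, it was 1 with the array-code column as a term, and it was 0 in a fit of the 2 groups alone.

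**Figure D1:**
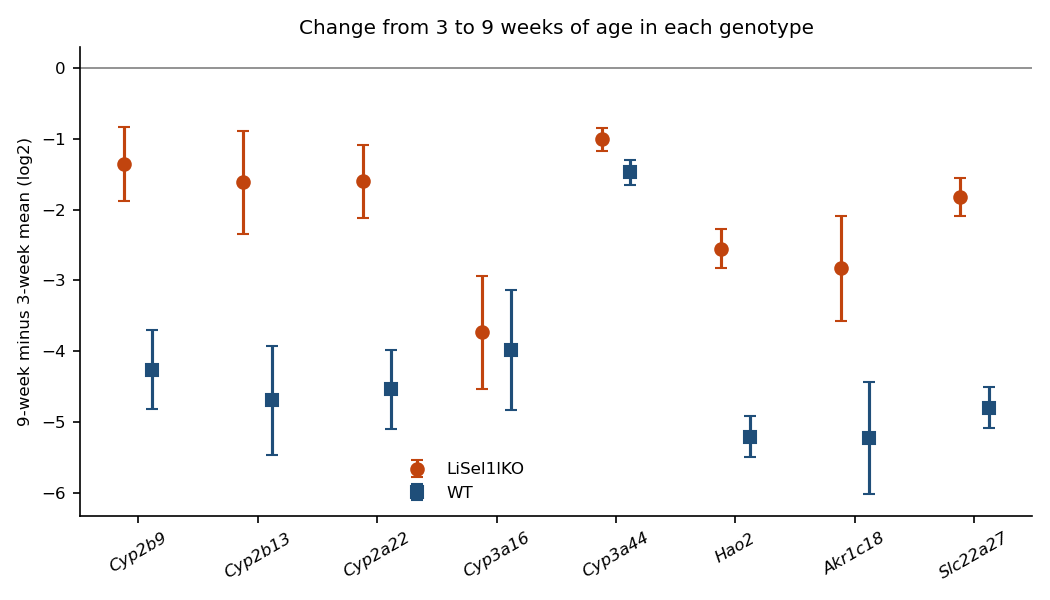
Difference between the 9-week and 3-week group means (log2, y axis) of the 8 genes in LiSel1lKO livers (circles) and WT livers (squares), with bars of 1 SE from the fit. The LiSel1lKO point lay above the WT point for all 8 genes, narrowly for Cyp3a16 and Cyp3a44. The WT differences chose the genes, which favours this order.

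The share of the WT fall seen in LiSel1lKO livers is the ratio of the 2 differences and was taken as a description. Its divisor is the comparison that chose the genes, so shares smaller than the whole WT fall were favoured by the choice. On the log2 scale it was 31.7% for Cyp2b9, 34.4% for Cyp2b13, 35.2% for Cyp2a22 and 37.9% for Slc22a27. It was 49.0% for Hao2, 54.1% for Akr1c18 and 68.2% for Cyp3a44. The ratio of Cyp3a16, 93.7%, compares 2 falls that both end below the array medians, so it is no exact share. The shares of Cyp2b13, Hao2 and Akr1c18 also divide by a fall with its WT end below the array medians and are not exact. That of Slc22a27 divides by a fall whose WT end lay at about that level, so it may not be exact either. Without LiSel1lKO 9-week replicate 1 the shares were 20.3% for Cyp2b9, 10.8% for Cyp2b13, 20.1% for Cyp2a22 and 72.9% for Akr1c18. Those of Slc22a27, Hao2, Cyp3a44 and Cyp3a16 were 35.5%, 41.7%, 61.9% and 92.1%. Leaving out replicate 2 instead gave larger LiSel1lKO falls and so larger shares for Cyp2b9 (-1.685), Cyp2b13 (-2.36) and Cyp2a22 (-1.99). Leaving out replicate 3 gave a smaller fall and share for Akr1c18 (-2.10). With all livers the median over the 8 genes was 43.4%, and 67.2% when the same ratio was taken on the linear scale. On the linear scale the shares of Cyp3a16 and Cyp3a44 exceeded the whole WT fall, at 115% and 121%. The order also changed with the scale, since Cyp2a22 was at 88.3% there and Cyp2b13 at 48.7%.

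Cyp2b9 encodes a P450 of subfamily 2B that oxidises steroids and foreign compounds. It was at 8.71, 10.35 and 9.999 in LiSel1lKO livers at 9 weeks, against 7.13, 7.34 and 4.92 in WT livers. The 3-week levels were 11.05, 10.81, 11.03 and 11.27 in LiSel1lKO livers, against 10.57, 10.97 and 10.62 in WT livers. The groups did not overlap at 9 weeks and overlapped at 3 weeks. At 9 weeks Cyp2b9 was higher in LiSel1lKO livers by 3.23 ± 0.56 on the log2 scale (9.36-fold, adjusted p = 0.0232), and by 2.45 without the lowest WT liver, replicate 3. By limma it did not pass without LiSel1lKO replicate 2 (2.89, adjusted p = 0.109) or replicate 3 (3.07, adjusted p = 0.109). The 9-week minus 3-week difference in LiSel1lKO livers was -1.35 ± 0.53 (adjusted p = 0.403). Without LiSel1lKO 9-week replicate 1, 2 or 3 that difference was -0.86, -1.685 and -1.51.

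Cyp2b13, its neighbour with the near-identical upstream sequence, was at 2.83, 6.53 and 5.76 in LiSel1lKO livers at 9 weeks, against 2.77, 2.08 and 1.71 in WT livers. Cyp2b13 was at 6.35, 6.40, 6.27 and 7.60 in 3-week LiSel1lKO livers, against 7.39, 6.98 and 6.28 in WT livers. LiSel1lKO replicate 1 at 9 weeks lay just above the highest WT liver. Replicate 2 was within the range of 3-week livers and replicate 3 was below it. The log2 difference at 9 weeks was 2.85 ± 0.77 (adjusted p = 0.107), and without LiSel1lKO replicate 1 it was 3.96 (adjusted p = 0.00285). Without replicate 2 it was 2.11 (adjusted p = 0.336), and without replicate 3 it was 2.49 (adjusted p = 0.316). All WT livers and LiSel1lKO replicate 1 lay below the array medians at 9 weeks, so these sizes are not exact. The 9-week minus 3-week difference in LiSel1lKO livers was -1.61 ± 0.72 (adjusted p = 0.487). Without LiSel1lKO 9-week replicate 1, 2 or 3 that difference was -0.51, -2.36 and -1.975. Probes of such near-identical genes can share signal, so Cyp2b9 and Cyp2b13 are uncertain one by one.

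Cyp2a22 encodes a P450 of subfamily 2A. It was at 7.58, 9.73 and 9.55 in LiSel1lKO livers at 9 weeks, against 6.62, 5.30 and 4.70 in WT livers. At the younger age Cyp2a22 was at 10.19, 10.64, 10.65 and 10.73 in LiSel1lKO livers, against 9.95, 10.42 and 9.86 in WT livers. As with the Cyp2b genes, LiSel1lKO replicate 1 was the lowest of its group at 9 weeks and still above every WT liver. Cyp2a22 was higher in LiSel1lKO livers at 9 weeks by 3.42 ± 0.56 on the log2 scale (10.7-fold, adjusted p = 0.0181). Leaving out LiSel1lKO replicate 1 gave 4.10, replicate 2 gave 3.03 and replicate 3 gave 3.12. By limma it did not pass without replicate 2 (adjusted p = 0.0903) or 3 (adjusted p = 0.0896). Nor did it pass without WT 9-week replicate 2 (adjusted p = 0.0745) or 3 (adjusted p = 0.0518). The 9-week minus 3-week difference in LiSel1lKO livers was -1.60 ± 0.52 (adjusted p = 0.299). Without LiSel1lKO 9-week replicate 1, 2 or 3 that difference was -0.91, -1.99 and -1.90.

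Cyp3a16 is a P450 of subfamily 3A known from fetal and newborn mouse liver. It was at 2.80, 3.00 and 2.97 in LiSel1lKO livers at 9 weeks, against 2.82, 2.90 and 3.03 in WT livers. In 3-week animals it was at 8.50, 7.82, 4.60 and 5.71 in LiSel1lKO livers, against 5.95, 8.08 and 6.68 in WT livers. All 9-week livers of both genotypes lay together below the array medians, whereas the 3-week livers were widely spread. The genotype difference at 9 weeks was 0.01 ± 0.85 (adjusted p = 0.998), with a 95% interval of -1.87 to 1.88 that the shared fit takes from the spread of all groups. The 9-week minus 3-week difference in LiSel1lKO livers was -3.73 ± 0.80 (adjusted p = 0.115), with its 9-week end below the array medians.

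Cyp3a44 is the other member of that pair and a female-predominant P450 in adult mice. It was at 6.06, 6.31 and 6.36 in LiSel1lKO livers at 9 weeks, against 5.36, 5.41 and 4.79 in WT livers. At 3 weeks Cyp3a44 was at 7.37, 6.89, 7.30 and 7.42 in LiSel1lKO livers, against 6.66, 6.70 and 6.62 in WT livers. It was the member whose groups did not overlap at either age, with LiSel1lKO livers higher at both (at 3 weeks, 3.88% of features had such groups). At 9 weeks it was higher in LiSel1lKO livers by 1.05 ± 0.18 on the log2 scale (2.08-fold, adjusted p = 0.0196), and in LiSel1lKO livers it fell by 1.00 ± 0.16 between the ages (adjusted p = 0.0477). At 3 weeks the genotype difference was 0.58 ± 0.16 (adjusted p = 0.457). The 95% interval at 9 weeks, 0.67 to 1.44, lay within that of Cyp3a16, and the difference between these genes was not tested. A further 2 features list Cyp3a44 together with other Cyp3a genes and were not used.

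**Figure D2:**
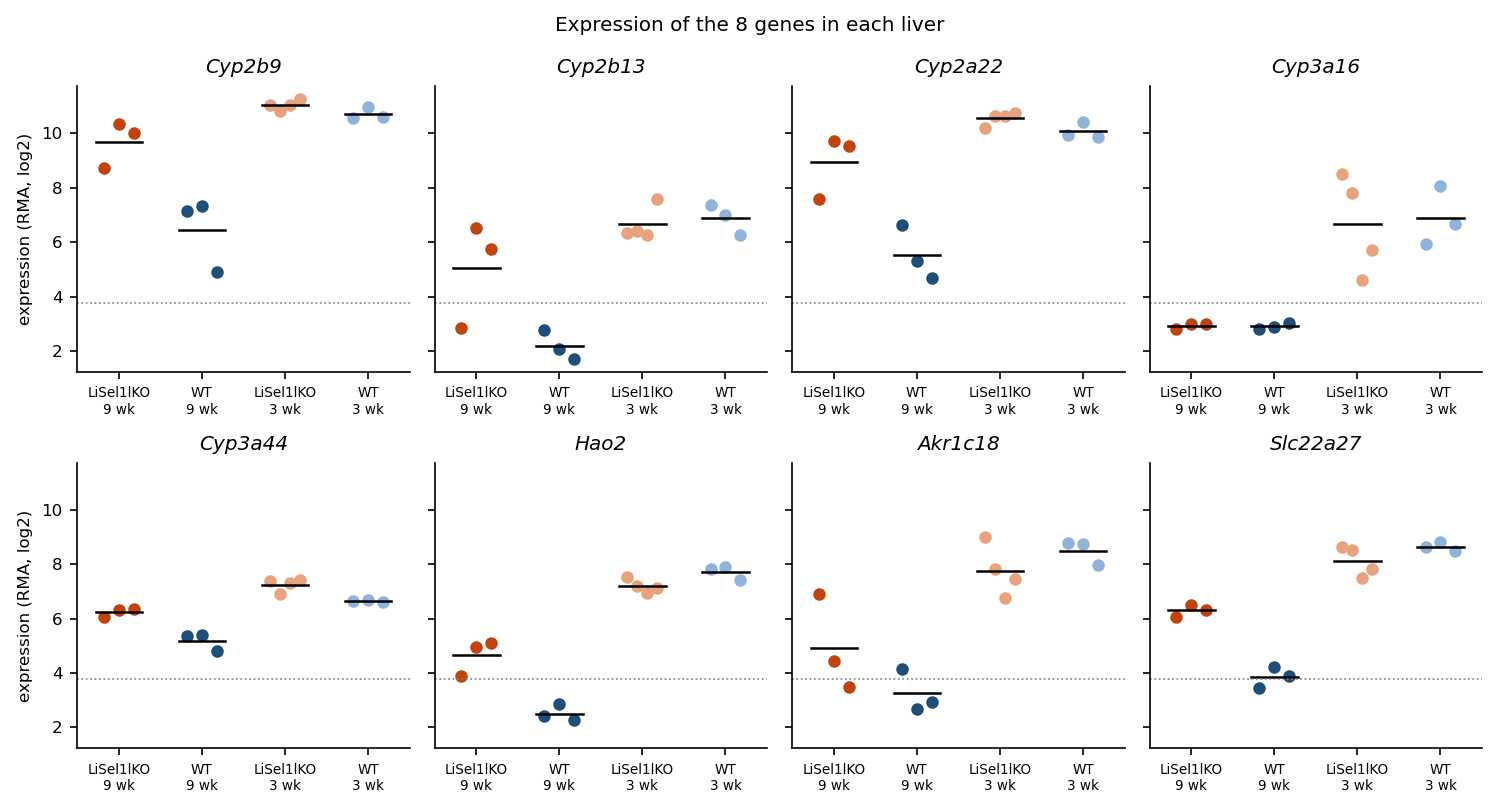
Log2 expression (y axis) of the 8 genes in each of the 13 livers, 1 panel per gene, with a point per liver, a line at the group mean and a dotted line at the median of the array medians (3.78). At 9 weeks the LiSel1lKO livers lay above the WT livers for 6 genes, and for Cyp3a16 both genotypes lay together below the dotted line.

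Hao2 encodes a peroxisomal oxidase of long-chain hydroxy acids. It was at 3.89, 4.96 and 5.10 in LiSel1lKO livers at 9 weeks, against 2.40, 2.85 and 2.28 in WT livers. The 3-week levels were 7.54, 7.18, 6.94 and 7.12 in LiSel1lKO livers, against 7.83, 7.91 and 7.43 in WT livers. The LiSel1lKO 9-week livers lay between the WT livers of the 2 ages and overlapped neither. At 9 weeks Hao2 was higher in LiSel1lKO livers by 2.13 ± 0.29 on the log2 scale (4.39-fold, adjusted p = 0.0121). Between the ages it fell by 2.55 ± 0.27 in LiSel1lKO livers (5.86-fold, adjusted p = 0.00729), against -5.21 ± 0.29 in WT livers. All WT 9-week livers lay below the array medians. The genotype difference at 9 weeks and the WT fall are thus lower bounds if that level is background.

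Akr1c18 encodes a hydroxysteroid dehydrogenase that inactivates progesterone. It was at 6.90, 4.43 and 3.48 in LiSel1lKO livers at 9 weeks, against 4.17, 2.69 and 2.95 in WT livers. At 3 weeks Akr1c18 was at 9.01, 7.83, 6.77 and 7.46 in LiSel1lKO livers, against 8.79, 8.75 and 7.96 in WT livers. The groups overlapped at both ages, and LiSel1lKO replicate 1, the lowest liver of its group for the other 7 genes, was the highest for this one. The genotype difference at 9 weeks was 1.67 ± 0.79 (adjusted p = 0.385), and 0.69 without LiSel1lKO replicate 1 (adjusted p = 0.671). The 9-week minus 3-week difference in LiSel1lKO livers was -2.83 ± 0.74 (adjusted p = 0.194), and -3.81 without LiSel1lKO 9-week replicate 1 (adjusted p = 0.0277). Without replicate 3 it was -2.10 (adjusted p = 0.558). The adrenal cortex markers averaged between 3.13 and 3.24 in the 9-week LiSel1lKO livers and between 3.43 and 3.51 in WT livers of that age. These averages lay below the array medians and have no assured distance from background.

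Slc22a27 encodes a transporter of the organic anion family. It was at 6.07, 6.51 and 6.32 in LiSel1lKO livers at 9 weeks, against 3.43, 4.21 and 3.88 in WT livers. At the younger age it was at 8.63, 8.53, 7.49 and 7.83 in LiSel1lKO livers, against 8.62, 8.82 and 8.48 in WT livers. The 3 LiSel1lKO livers at 9 weeks lay close together, midway between the WT livers of the 2 ages. At 9 weeks Slc22a27 was higher in LiSel1lKO livers by 2.46 ± 0.29 on the log2 scale (5.50-fold, adjusted p = 0.00793). Between the ages it fell by 1.82 ± 0.27 in LiSel1lKO livers (3.53-fold, adjusted p = 0.0418), against -4.80 ± 0.29 in WT livers.

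At 9 weeks, then, 5 of the 8 genes (Slc22a27, Hao2, Cyp2a22, Cyp3a44 and Cyp2b9) were called higher in LiSel1lKO livers, against 1.03% of all features. In 6 genes the LiSel1lKO livers all lay above the WT livers, against 9.89% of features. The median log2 difference was 2.30 for the 8 genes and -0.01 for all features. Because the WT 9-week livers also entered the comparison that chose the genes, a positive difference was favoured by the choice. With it the counts, sizes and ranks given here were favoured too. Among the 257 genes called higher, ranked by size, Cyp2a22 and Cyp2b9 came 3rd and 4th, after the ER membrane protein gene Derl3 (4.16) and the stress-response gene Nupr1 (3.56) and ahead of Serpina7 (2.81). Slc22a27 ranked 8, Hao2 14 and Cyp3a44 60. The count of 5 became 1 without LiSel1lKO 9-week replicate 2, 0 without replicate 3, 6 without replicate 1, and 0 in a fit of the 2 groups alone.

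At 3 weeks the genotype differences of the 8 genes went both ways. They lay between -0.73 (Akr1c18) and 0.58 (Cyp3a44) on the log2 scale. Their 95% intervals reached down to -2.36 (Akr1c18) and up to 1.62 (Cyp2a22), so sizeable differences of single genes were not detectable with these livers. The median log2 difference was -0.24, with 3 genes above 0 and 5 below, and 0 of the 8 were called, against 0.0% of features. By limma at an unadjusted p under 0.05 there was 1 gene, Cyp3a44, against 7.41% of features. The WT 3-week livers also entered the choice of the genes, which favours a negative difference here. In LiSel1lKO livers at 3 weeks, replicates 3 and 4, which had the least Sel1l, were the 2 lowest for 4 of the 8 genes, while replicate 4, with the lowest Sel1l of all, was the highest for the other 4. Whether Sel1l had a part in either was not tested.

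The difference between the age changes of the genotypes (interaction) was positive for all 8 genes, against 48.9% of features, with a median of 2.78 on the log2 scale against -0.01 over all features. It was largest for Cyp2b13 (3.08 ± 1.06, adjusted p = 0.398), Slc22a27 (2.98 ± 0.40, adjusted p = 0.0911) and Cyp2a22 (2.94 ± 0.76, adjusted p = 0.282), and smallest for Cyp3a16 (0.25 ± 1.17, adjusted p = 0.968). That of Hao2 was 2.66 ± 0.40 (adjusted p = 0.107). By limma 0 of the 8 passed the threshold, against 0.0% of features, and 6 had an unadjusted p under 0.05, against 9.73%. The value of Slc22a27 was the smallest adjusted p of all 35556 features. The interaction contains the WT difference that chose the genes, so its direction and size were favoured by the choice. The same holds for the small p values and for the counts and the rank set against all features. When only features with a single gene symbol were tested, 2 genes passed, Hao2 and Slc22a27 (adjusted p = 0.0321 each), and without LiSel1lKO 9-week replicate 1 there were 3.

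The LiSel1lKO livers at 9 weeks were unequal. With the WT 9-week mean set to 0% and the WT 3-week mean to 100% of the log2 distance, the median place of the 8 genes was 45.7% in replicate 1, 65.7% in replicate 2 and 63.9% in replicate 3. For Cyp2b9 the places were 52.8%, 91.4% and 83.0%, for Cyp2b13 13.7%, 92.5% and 76.2%, and for Cyp2a22 45.0%, 92.4% and 88.3%. These 3 genes of chromosome 7 thus stood closer to the WT 3-week mean in replicates 2 and 3 than in replicate 1. A high place on the log2 scale can still hold a sizeable fold difference. Cyp2b13 in replicate 3 was at 5.76, against a WT 3-week mean of 6.88. Slc22a27 varied least among the genes that had not reached the adult level, at 46.5%, 55.5% and 51.7%. Akr1c18 ran the other way, at 69.5%, 22.2% and 4.10%. Both WT means entered the choice of the genes, which favours places between them. The WT 9-week means of Cyp2b13, Hao2, Akr1c18 and Cyp3a16 lay below the array medians, so their places are not exact. That of Slc22a27 lay at about that level. Replicate 1 also had the most Sel1l of the 3 livers (7.90, against 7.54 and 7.72), and its part in these places was not tested.

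**Figure D3:**
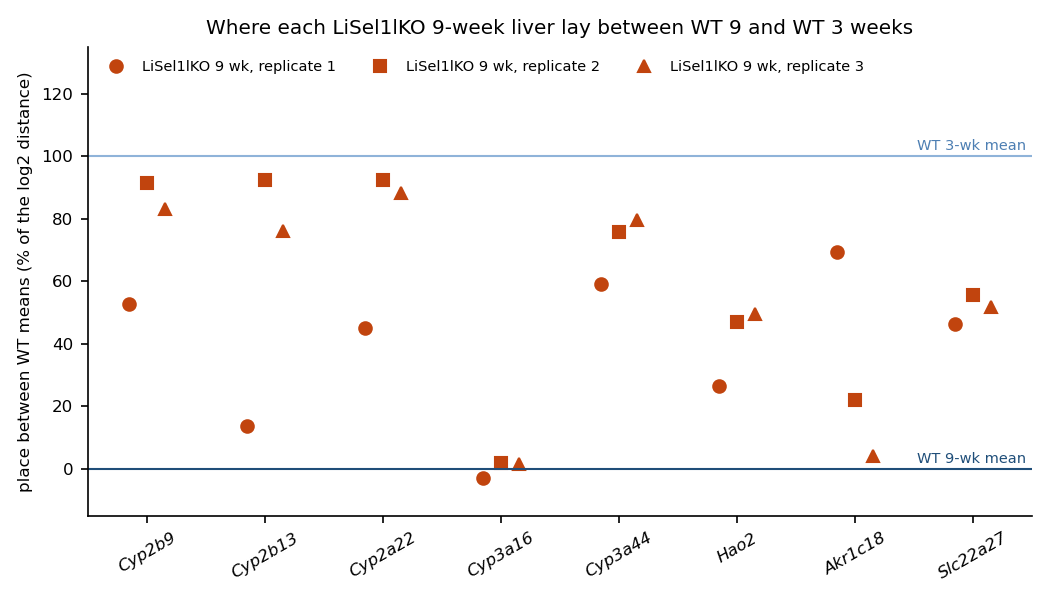
Place of each LiSel1lKO 9-week liver (symbol by replicate) between the WT 9-week mean (0%) and the WT 3-week mean (100%) on the log2 scale, for the 8 genes. Replicate 1 is the lowest for 7 genes and the highest for Akr1c18, and the 3 livers lie near 0% for Cyp3a16.

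The array names carry a code whose meaning the labels do not give, with the numbers 5 and 7 spread over all groups. Within number 5 the median genotype difference of the 8 genes at 9 weeks was 2.00, with 7 above 0, and within number 7 it was 2.73, with 8 above 0. The median age difference in LiSel1lKO livers was -2.29 and -1.29 within those numbers, with Cyp2b13 at 0.22 within number 7. The median genotype difference at 3 weeks was 0.31 and -0.67. The interaction was 2.08 and 3.44. Number 5 held 1 WT 9-week liver, and number 7 held 1 LiSel1lKO 9-week and 1 WT 3-week liver.

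Other genes of the same families went both ways. Of 20 measured relatives at 9 weeks, 1 was called higher in LiSel1lKO livers, against 1.03% of all features, and 1 lower, against 0.484%. At an unadjusted p under 0.05 there were 11, against 13.9%, and 6 lay above 0 and 14 below, with a median log2 difference of -0.27. The one that rose was Slc22a26, a transporter gene of the Slc22a27 group (1.95 ± 0.31, adjusted p = 0.0161). Hao1, which encodes the liver's glycolate oxidase, fell by 1.22 ± 0.20 (adjusted p = 0.0179), in the direction opposite to Hao2. Of the 8 measured genes between Cyp2b9 and Cyp2a22 on chromosome 7 in RefSeq order, 7 had 9-week means below the array medians in both genotypes, so their differences say little. The other, Cyp2a5, a P450 next to Cyp2a22 and picked by its position, averaged 11.35 in LiSel1lKO livers and 10.99 in WT livers, a difference of 0.36.

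**Figure D4:**
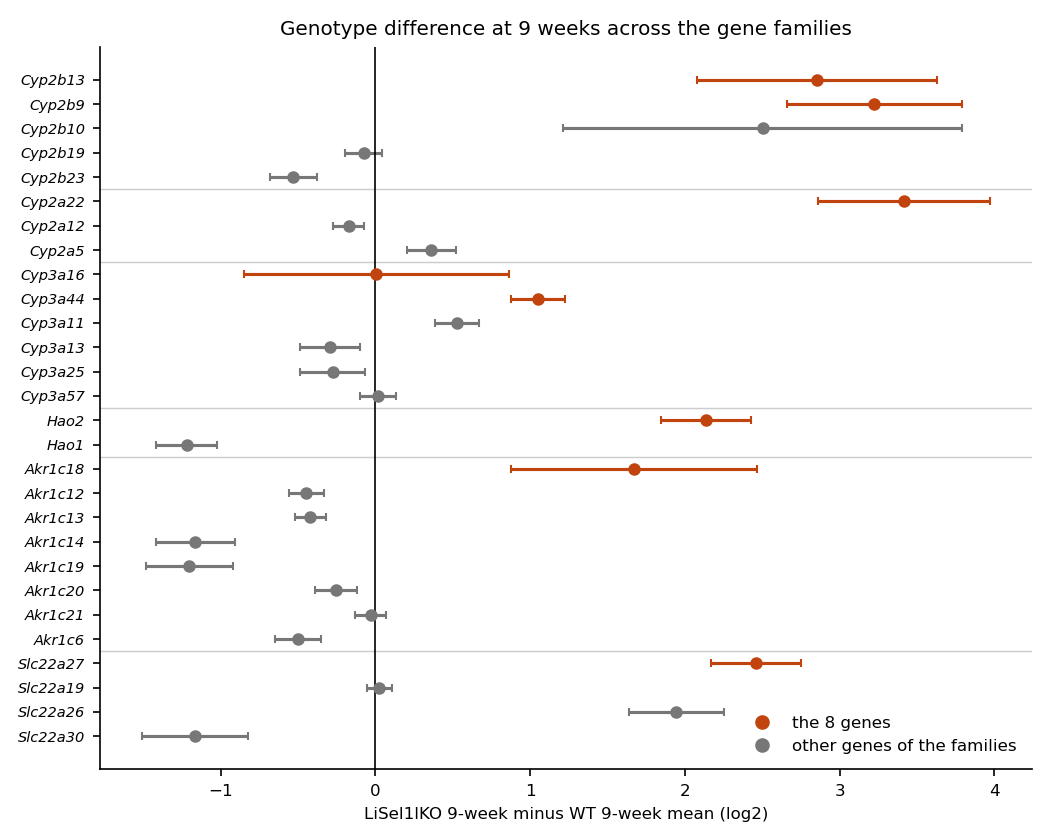
Difference between LiSel1lKO and WT livers at 9 weeks (log2, x axis, with bars of 1 SE from the fit) for the 8 genes and the other measured genes of their families, grouped by family. Of the 20 relatives 14 lie below 0, while 7 of the 8 genes lie at 1.05 or above and Cyp3a16 lies at 0.01.

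Genes known to differ between the sexes in adult mouse liver gave the wider setting. Of 16 measured female-biased genes outside the 8 (26 listed), 3 rose in LiSel1lKO livers at 9 weeks and 0 fell, with all 16 above 0 (48.5% of all features) and a median log2 difference of 0.66. Among the 16, Sult3a1, Sult1e1, Prom1 and A1bg had 9-week means below the array medians in both genotypes, so their differences say little. The 3 that rose were Slc22a26, Atp6v0d2, a subunit gene of the proton pump (2.36 ± 0.44, adjusted p = 0.0295), and Cyp17a1, a steroid hydroxylase and lyase (1.71 ± 0.36, adjusted p = 0.0450). Of 19 measured male-biased genes (23 listed), 10 fell and 0 rose, with a median of -1.76. Over all features 1.03% were called higher and 0.484% lower in that comparison. Cyp4a12a, a fatty acid hydroxylase, fell by 4.14 ± 0.61 (adjusted p = 0.0129), and the major urinary protein gene Mup21 fell by 3.01 ± 0.47 (adjusted p = 0.0158). Cyp2d9, a steroid hydroxylase, and Ugt2b38, a glucuronosyltransferase, fell by 2.10 ± 0.31 (adjusted p = 0.0129) and 1.24 ± 0.18 (adjusted p = 0.0123). Between the ages in WT livers, 7 of the 16 female-biased genes fell and 0 rose, and 14 of the 19 male-biased genes rose and 0 fell, against 1.12% of all features called lower and 0.765% higher. In LiSel1lKO livers between the ages, by limma 0 of the 16 passed the threshold, and 1 of the 19 rose and 0 fell. Over all features 0.0759% were called higher and 0.0787% lower there. Of the 16, 13 lay below 0, with a median of -0.45, against -1.17 in WT livers. Of the 19, 16 lay above 0, with a median of 0.66, against 2.91 in WT livers. By limma 7 of the 16 and 9 of the 19 had an unadjusted p under 0.05, against 10.1% of features.

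Among 20 measured regulators of these programmes, 1 was called lower at 9 weeks, against 0.484% of all features, and 0 higher, against 1.03%. Ghr, the growth hormone receptor, was at a mean of 8.92 ± 0.27 in LiSel1lKO livers and 9.71 ± 0.10 in WT livers (SD, n = 3 each) and fell by 0.79 ± 0.13 on the log2 scale (adjusted p = 0.0196). The median of the 20 was -0.14. Of 13 measured fetal and neonatal liver genes, 1 was called higher, against 1.03% of all features, and the median of the 13 was 0.06. The called gene was Lpl, which encodes lipoprotein lipase (1.14 ± 0.23, adjusted p = 0.0378). Of 12 measured targets of the drug-sensing receptors CAR and PXR, by limma 0 passed the threshold, and the median was -0.15. By limma 3 of the 12 had an unadjusted p under 0.05, against 13.9% of all features. The smallest p there belonged to Cyp3a11 (0.53 ± 0.14, adjusted p = 0.0964) and Abcc4, an export pump (0.73 ± 0.25, adjusted p = 0.203).

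The genes whose levels ran most like the mean of the 8 over the 13 livers were Slc22a26 (Pearson r = 0.977), Nt5e (0.965), Car2 (0.957), Cyp39a1 (0.956), Anapc5 (0.955) and D17H6S56E-5 (0.955), then Rpl11 (0.951), Pls1 (0.951), Idh2 (0.950) and Mgst3 (0.948). The 13 livers fall into 4 groups that differ in age and genotype, so these values describe likeness and carry no p. Their changes were not of one size. Nt5e, which encodes an ectonucleotidase, differed between LiSel1lKO and WT livers at 9 weeks by 1.72 on the log2 scale, whereas the ribosomal protein gene Rpl11 differed by 0.14.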

How the data were processed

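The table analysed holds log2 expression values deposited by the authors, 1 per feature and liver, made by RMA (robust multi-array averaging: background correction, quantile normalization and probe summary) per the submitters' processing notes. The labels give neither software version nor probe definitions. A shift common to most genes would largely be removed by this normalization, and low signals are compressed, so large falls may be understated. Sample titles gave each liver's group and replicate number and describe separate mice. The array names of the 9-week livers titled replicate 3 carry another number, and the titles were used. The number of arrays limits the precision.

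Genes were taken from the platform annotation where a feature had exactly 1 symbol (21218 of 35556 features), using the feature with the highest mean per gene. All features were tested with limma 3.58.1 in R 4.3.3, with a mean per group over 13 livers, eBayes, two-sided, and Benjamini-Hochberg adjustment over 35556 features. An adjusted p under 0.05 counts as a call, SE are from this fit, and the procedure was tested on simulated data. Arrays of one group correlated at 0.983 to 0.988 and arrays of different groups at 0.976 to 0.987, so no array looked like a duplicate.

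The 8 genes, the gene lists and the tests were chosen with earlier results of these data known. Named genes were the 8 and Sel1l, up to 4 called genes per list with the smallest p at 9 weeks (where none was called, the 2 with the smallest p), the 10 most alike in profile, and the 5 largest rises for rank. Deviations from the group means correlated at -0.01 to 0.08 between same-numbered livers of different groups. Between livers of different numbers they correlated at -0.09 to 0.06. The same-numbered values lay mostly above 0, so a weak shared deviation is possible. The labels name no pairs, so numbers were not taken as pairs in the main fit, and the replicate number was a term in an alternative. Alternatives were the features tested, a filter on low values, the groups fitted, the prior, a second quantile normalization, array code and replicate number as terms, and leaving out each liver.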

Additional observations from a re-analysis of the deposited data

Results flagged for a closer look

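Cyp2b13 stood out in the LiSel1lKO livers at 3 weeks, the 1 group with 4 livers, because replicate 4 stood apart at 7.60 from the others at 6.35, 6.40 and 6.27. The gap was 0.903 of the range of the group. Dixon's rule flags about 1 in 20 groups by chance, and 8 genes were examined. Without that liver the Cyp2b13 difference between 9 and 3 weeks in LiSel1lKO livers was -1.30, against -1.61 with it, and the genotype difference at 3 weeks was -0.54, against -0.23 with it, and neither passed the threshold either way.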

How the results depend on the processing

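Of the single-gene values, the direction held under every alternative except for Cyp3a16 and, once, Cyp2b13. With the replicate number as a block, Cyp3a16 turned to 0.072 at 3 weeks (main value -0.24) and to -0.065 in the interaction (main value 0.25). Leaving out 1 liver turned Cyp3a16 at 9 weeks (range -0.042 to 0.069), at 3 weeks (-0.86 to 0.44) and in the interaction (-0.43 to 0.86), and Cyp2b13 at 3 weeks (-0.543 to 0.023). The counts moved more, and the cause was not tested. For LiSel1lKO livers between the ages, 3 of the 8 genes and 55 features were called. The counts were 144 features with only 1-symbol features tested, 109 with low features left out, 0 genes and 9 features when only the 2 groups were fitted, 1 gene and 18 features with the array code as a term, and 0 genes and 12 features with the replicate block. Leaving out 1 liver gave 1 to 3 genes and 6 to 210 features. For the genotypes at 9 weeks, with 5 genes and 539 features called, there were 866 features with low features left out, 0 genes and 1 feature when only the 2 groups were fitted, 294 features with the array code, and 2 genes and 184 features with the replicate block. Leaving out 1 liver gave 0 to 6 genes and 18 to 1178 features. At 3 weeks, 2 features were called with only 1-symbol features tested and 0 to 1 with 1 liver left out, against 0. In the interaction, with 0 called, testing 1-symbol features called 2 genes and 15 features, and leaving out 1 liver called 0 to 3 genes and 0 to 36 features. The median WT fall was -4.79 to -4.29 and the median share 38.6% to 49.7% with 1 liver left out, and the share was 67.2% on the linear scale. The replicate block, added for these medians after seeing the data, gave a WT fall of -4.62 and a share of 44.7%. Averaging a gene's features changed nothing, as each of the 8 has 1, and the interaction could not be fitted in fewer groups.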

Other observations

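Cyp2b10, the 2B P450 known for its response to the drug sensor CAR, was singled out after its values were seen. At 9 weeks it lay between 3.37 and 8.52 in LiSel1lKO livers and between 3.55 and 4.37 in WT livers, and at 3 weeks between 5.13 and 9.28 in LiSel1lKO livers and between 4.82 and 5.30 in WT livers. Its difference at 9 weeks was 2.50 ± 1.29 on the log2 scale (adjusted p = 0.428), with overlap between the groups.

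Markers of several other liver cell types were lower on balance in LiSel1lKO than in WT livers at 3 weeks, and by limma 0 of them were called. At an unadjusted p under 0.05 there were 7.41% of all features at 3 weeks and 13.9% at 9 weeks. All 7 Kupffer cell markers lay below 0 at 3 weeks, with a median log2 difference of -0.42 and 1 at an unadjusted p under 0.05. Of the stellate cell markers 6 of 6 lay below 0 (median -0.29, 1 at that p), of the erythroid markers 3 of 3 (median -0.92, 2 at that p) and of the sinusoidal endothelial markers 5 of 6 (median -0.23, 3 at that p). Their part in the 3-week values of the 8 genes was not tested. At 9 weeks the medians of these lists were 0.05, -0.09, -0.22 and 0.00 in the same order, again with 0 called by limma and with 0, 1, 1 and 2 markers at an unadjusted p under 0.05.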
